A study of Drosophila melanogaster with 2 samples.

Results

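Divergent promoter peaks were regions enriched by chromatin immunoprecipitation of tagged Hnf4 that lay close to the starts of genes on both strands. They were chosen from the authors' optimal peaks on the autosome arms 2L, 2R, 3L and 3R of Drosophila melanogaster (dm6 build), with a rule that used only position. The summit, the base of strongest signal, had to lie within 1000 bp of transcription start sites (TSSs) of at least 2 protein-coding genes, 1 on the plus and 1 on the minus strand. The rule gave 819 of 5817 optimal peaks, which is 14.1% of all peaks and 17.3% of the 4735 on these arms. They fell on 2L (195 peaks), 2R (169), 3L (206) and 3R (249). The samples formed 1 group of 2 biological replicates, replicate 1 and replicate 2, with no contrast between conditions. Both came from whole larvae, pooled male and female, in the wandering phase of the third larval instar and of unstated age, from a transgenic line that stably expresses Hnf4 with green fluorescent protein at its C-terminus. The labels' description gives an antibody against that fluorescent protein, while their antibody field names Hnf4, and they do not name the promoter that drives the fusion. Whole animals were used, so the cell types behind a peak are not known, and the lists hold no read counts, so the depth of each replicate is unknown.

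Hnf4 is a nuclear receptor whose vertebrate relatives act in liver metabolism, and in the fly it is known for roles in fat body, midgut and oenocytes, where it promotes fatty acid oxidation. In the compact fly genome many neighbouring genes start back to back and are transcribed away from each other, so a single stretch of DNA serves both promoters. Such promoters often belong to housekeeping genes and often carry the DNA replication-related element (DRE), the site of the factor DREF, or the site of the factor M1BP. A peak at such a promoter cannot be assigned to one of its genes.

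The sequences around 5 summits show the range of these promoters: the strongest member (mRpS23/CenG1A), and the strongest members on 2L, 3L or 3R with the DRE (Atat/Shc), the M1BP site (Ripalpha/RpL7), the Hnf4 site CAAAGTCCA (RpL34a/Trmt61) and a direct repeat of the nuclear receptor half-site with a 1-base spacer (CG3164/Gs1). Pairs are written with the minus-strand gene before the slash. Each sequence is the plus strand of the dm6 reference, 5′ to 3′, 201 bases centred on the summit, and capitals mark the matched motif on either strand.
mRpS23/CenG1A: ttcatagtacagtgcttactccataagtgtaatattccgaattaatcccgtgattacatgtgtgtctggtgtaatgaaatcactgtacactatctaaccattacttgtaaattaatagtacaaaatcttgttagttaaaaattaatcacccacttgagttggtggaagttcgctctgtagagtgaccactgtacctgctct
Atat/Shc: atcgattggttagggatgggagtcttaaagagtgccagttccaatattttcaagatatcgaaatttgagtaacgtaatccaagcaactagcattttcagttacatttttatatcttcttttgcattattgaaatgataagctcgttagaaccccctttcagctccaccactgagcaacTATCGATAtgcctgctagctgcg
Ripalpha/RpL7: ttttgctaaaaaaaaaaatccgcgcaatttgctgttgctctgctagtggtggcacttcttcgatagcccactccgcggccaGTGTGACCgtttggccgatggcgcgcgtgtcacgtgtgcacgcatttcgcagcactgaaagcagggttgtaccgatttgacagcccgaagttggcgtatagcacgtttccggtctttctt
RpL34a/Trmt61: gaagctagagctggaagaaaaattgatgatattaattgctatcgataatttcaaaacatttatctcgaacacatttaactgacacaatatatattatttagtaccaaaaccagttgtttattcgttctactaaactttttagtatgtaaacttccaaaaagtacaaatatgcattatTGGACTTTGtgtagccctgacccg
CG3164/Gs1: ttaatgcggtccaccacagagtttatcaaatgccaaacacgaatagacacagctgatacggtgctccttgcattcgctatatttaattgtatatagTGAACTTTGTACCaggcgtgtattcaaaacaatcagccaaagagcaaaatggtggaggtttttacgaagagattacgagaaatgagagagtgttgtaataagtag
The windows lie at chr2L:13835358-13835558 (mRpS23/CenG1A), chr3L:9426782-9426982 (Atat/Shc), chr2L:10200909-10201109 (Ripalpha/RpL7), chr3R:26059264-26059464 (RpL34a/Trmt61) and chr2L:131431-131631 (CG3164/Gs1). The mRpS23/CenG1A window held none of the DRE, M1BP, motif 7, GAGA, E-box, GATA and Hnf4 motifs searched. The Atat/Shc window also held the core promoter element known as Ohler motif 7 (CATCNCTA), the Ripalpha/RpL7 window an E-box (CACGTG), the RpL34a/Trmt61 window a DRE and the CG3164/Gs1 window GAGA sequence (GAGAGAG), all left in lower case.

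Of the 20 strongest members, 4 lay at promoters that a mitochondrial ribosomal protein gene shares with another gene. Counted by gene over all members, 27 of the 1434 genes with a divergent peak belonged to the mitochondrial ribosome. Peaks and genes are different units, so these counts cannot be compared directly. The authors' signal value, an enrichment over control that ranks regions within a list, was 787 in replicate 1 and 672 in replicate 2 at mRpS23/CenG1A, and 1464 in the optimal list, where this peak held position 9 of all 5817. Its summit lay 386 bp from the mRpS23 start and 106 bp from the CenG1A start. mRpS23 encodes a protein of the mitochondrial ribosome's small subunit and CenG1A a regulator of Arf GTPases. At Tcs5/CHMP2B the values were 698 in replicate 1 and 740 in replicate 2, the highest of any member in replicate 2. Tcs5 is a kinase of the complex that modifies transfer RNAs, and CHMP2B is a subunit of ESCRT-III, which cuts membranes in endosomal sorting. Pex11ab/CG8320, where Pex11ab acts in the division of peroxisomes, had 695 in replicate 1 and 693 in replicate 2. PNPase/Gprk2, which joins a mitochondrial ribonuclease and a kinase of G protein-coupled receptors, had 747 in replicate 1 and 611 in replicate 2. Genes of the mitochondrial ribosome recurred at Art3/mRpS10, with 609 in replicate 1 and 617 in replicate 2, at mRpL41/CG8079, with 583 in replicate 1 and 638 in replicate 2, and at mRpL23/CG9004, with 487 in replicate 1 and 444 in replicate 2.

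Others among the 20 strongest joined the interband chromatin protein Chromator (Chro) to the TFIIH subunit Ssl1, the tubulin acetyltransferase Atat to the receptor adaptor Shc, Mkk4, a kinase upstream of JNK, to the mitochondrial RNA-binding protein SLIRP2, the Hsp90 co-chaperone Dpit47 to the transcription factor Adf1, and the mitochondrial complex I assembly factor CIA30 to CG7601. The rest were Fbw5/CG9147, CG8372/CG8360, Mnat9/CG1792, CG3437/CG3552, CG11309/CG7632, CG5611/Mtl, Pdrg1/Pal1 and CG13390/CG17294, where Mtl is a Rac-family GTPase and Pal1 an enzyme that amidates neuropeptides. Across the 20, the values ran between 348 and 787 in replicate 1 and between 271 and 740 in replicate 2. By ratio, the replicates differed most at CG11309/CG7632, with 572 in replicate 1 and 317 in replicate 2, and at CG13390/CG17294, with 445 in replicate 1 and 271 in replicate 2. All 20 also overlapped the 5817 strongest regions of each replicate, which the rule for naming them required.

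**Figure D1:**
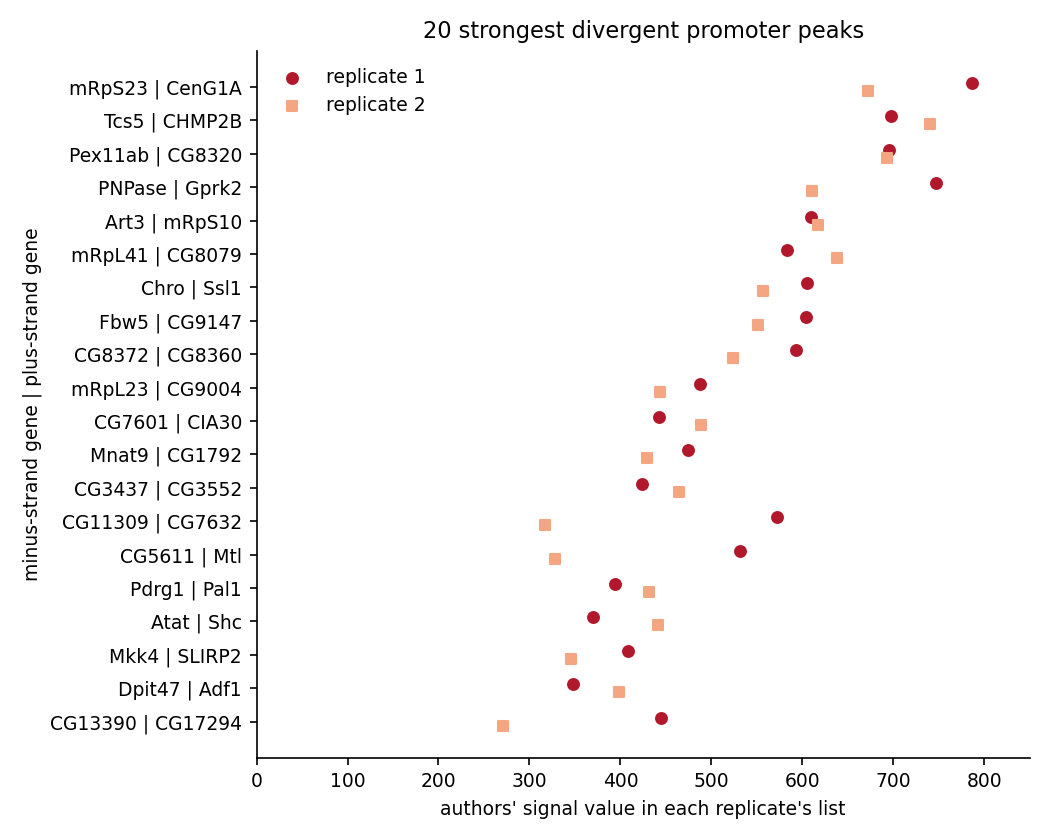
Signal values of the overlapping region in replicate 1 (circles) and replicate 2 (squares) for the 20 strongest divergent promoter peaks, in order of the optimal list. The horizontal axis is the authors' signal value; the values run between 348 and 787 in replicate 1 and between 271 and 740 in replicate 2.

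The nearest starts on the 2 strands were arranged head to head, with the plus-strand start at the same or a higher coordinate than the minus-strand start, at 795 of 819 members (97.1%). The remaining 24 had starts that face each other, 23 of them at genes that overlap, and the strongest of these, CG4741/Adck1, had a signal value of 714. At head-to-head pairs the starts lay a median of 350 bp apart, with an interquartile range of 243 to 545 bp. The summit lay between the starts at 595 of these 795 members (74.8%, 95% exact interval 71.7 to 77.8). Over all members the nearer start was a median of 75 bp away and the farther start 294 bp.

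The place of the summit differed with the distance between the starts. With starts 601 to 1000 bp apart, the median distance was 67.5 bp to the nearer start and 687 bp to the farther one (138 members). With starts 201 to 300 bp apart these distances were 84 bp and 181 bp (165 members), and 84.8% of the summits lay between the starts. With starts within 100 bp of each other, 34.1% lay between them (82 members). With starts 1001 to 2000 bp apart the median distances were 289 bp and 907 bp (29 members), and there the rule itself confines the summit to the stretch within 1000 bp of both starts. The side was mostly the same in both replicates: the summits of the overlapping replicate regions had the same nearer start at 672 of 777 members (86.5%, interval 83.9 to 88.8). This share was lowest for starts 101 to 200 bp apart, at 44 of 66 members, and reached 195 of 202 for starts 501 to 1000 bp apart. With starts within 100 bp of each other it was 65 of 77. Replicate summits differed by a median of 26 bp. The Dpit47/Adf1 peak was unusual among the 20 strongest in its distance from its starts, 946 bp and 794 bp. Its summit lay outside the pair, as did others of the 20, such as that of Pex11ab/CG8320.

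**Figure D2:**
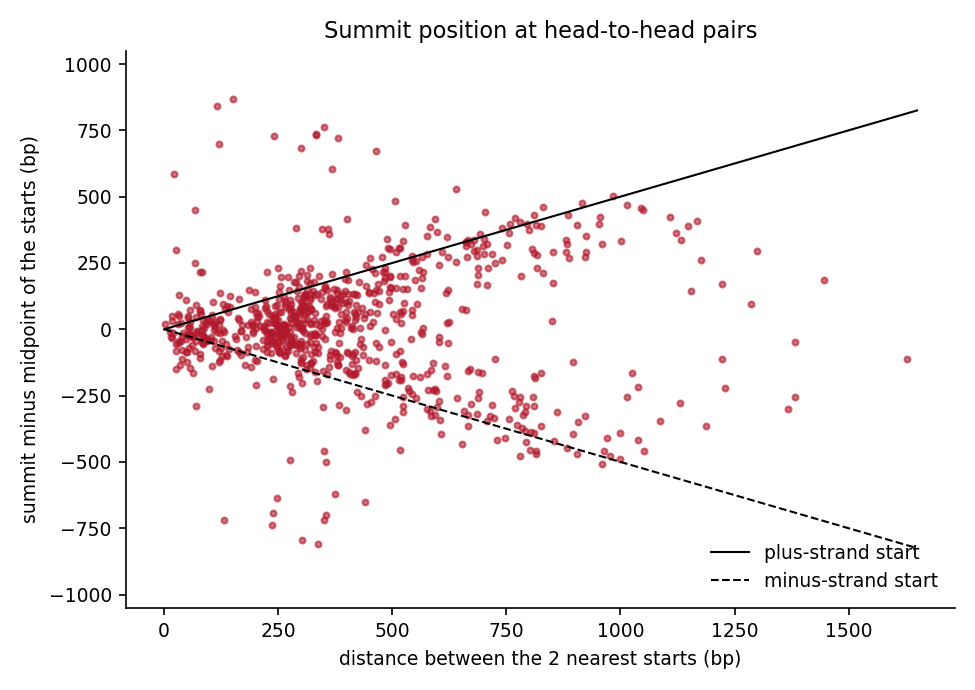
Distance of the summit from the midpoint between the starts (vertical axis, bp) against the distance between the nearest minus- and plus-strand starts (horizontal axis, bp) for the 795 head-to-head members; lines mark the positions of the starts. At 601 to 1000 bp the points lie mostly along the lines, with median distances of 67.5 bp to the nearer and 687 bp to the farther start; beyond 1000 bp, where the rule bounds the position, they lie inside the lines at a median of 289 bp from the nearer start.

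The peaks sat at 694 distinct nearest gene pairs, 117 of which held 2 or 3 members, and 28 members shared an interval with another member. Members are therefore not independent of each other. Of the 819, 777 overlapped a region in both replicate lists of 30000 regions. The list of replicate 1 held no region at 11 members and that of replicate 2 none at 33, and 2 members were among both. The strongest member without a replicate 1 region was CG7183/CG7988 at chr3R:18220208-18220579, with a signal value of 226 in replicate 2 and 528 in the optimal list; the nearest replicate 1 summit lay 3299 bp away. At the neighbouring mTerf5/Non3 promoter (chr3R:18223570-18223708) the opposite held, with 99.1 in replicate 1 and no replicate 2 region, the nearest replicate 2 summit being 3274 bp away. The strongest member without a replicate 2 region was CG6693/RpL3, with 188 in replicate 1 and 265 in the optimal list.

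Divergent promoter peaks had a higher median signal value than the other classes of autosomal peaks in both replicates. They were set against promoter peaks with starts on 1 strand only, either upstream of the start (1156 peaks) or downstream of it (595), and against the 2165 other autosomal peaks. Among the strongest 5817 regions of replicate 1, the median signal value was 89.3 at divergent promoters, 79.1 at one-strand upstream regions, 67.3 at one-strand downstream regions and 69.6 elsewhere. In replicate 2 the medians were 65.0, 52.2, 43.1 and 43.7 in the same order. In the optimal list the median was 142 (95% interval 136 to 150, n = 819) at divergent promoters, 121 (117 to 127) at one-strand upstream peaks, 103 (97.7 to 109) at downstream peaks and 106 (102 to 108) elsewhere. The intervals of divergent and one-strand upstream peaks did not overlap in the optimal list or in either replicate, but they treat neighbouring peaks as independent. No test was run, because the 2 replicates belong to 1 group and peaks are not replicates of a condition.

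The distributions overlapped widely. Members made up 133 of the strongest 10% of optimal peaks, or 16.2% of members, against 11.9% of one-strand upstream peaks, 7.56% of downstream peaks and 7.16% of other autosomal peaks. Of the members, 643 (78.5%) overlapped the strongest regions of both replicates, against 74.6% of one-strand upstream peaks, 62.7% of downstream peaks and 69.0% of the rest. Medians by arm ran between 139 on 2L and 148 on 3R. Summits of members also lay nearer to a start: a median of 75 bp, against 184.5 bp at one-strand upstream peaks. Among summits within 100 bp of the nearest start, a comparison added after the values were seen, the median was 141 (interval 129 to 150, n = 519) at divergent promoters and 121 (116 to 129, n = 354) at one-strand upstream peaks. At that distance replicate 1 gave 87.2 and 78.2, and replicate 2 gave 64.8 and 52.9, for divergent and one-strand upstream regions. The intervals of these medians overlapped in the optimal list and in replicate 1, and did not in replicate 2 (60.7 to 70.9 at divergent and 48.6 to 56.4 at one-strand upstream regions). In the optimal list they also overlapped among summits 101 to 250 bp and 251 to 1000 bp from the nearest start.

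**Figure D3:**
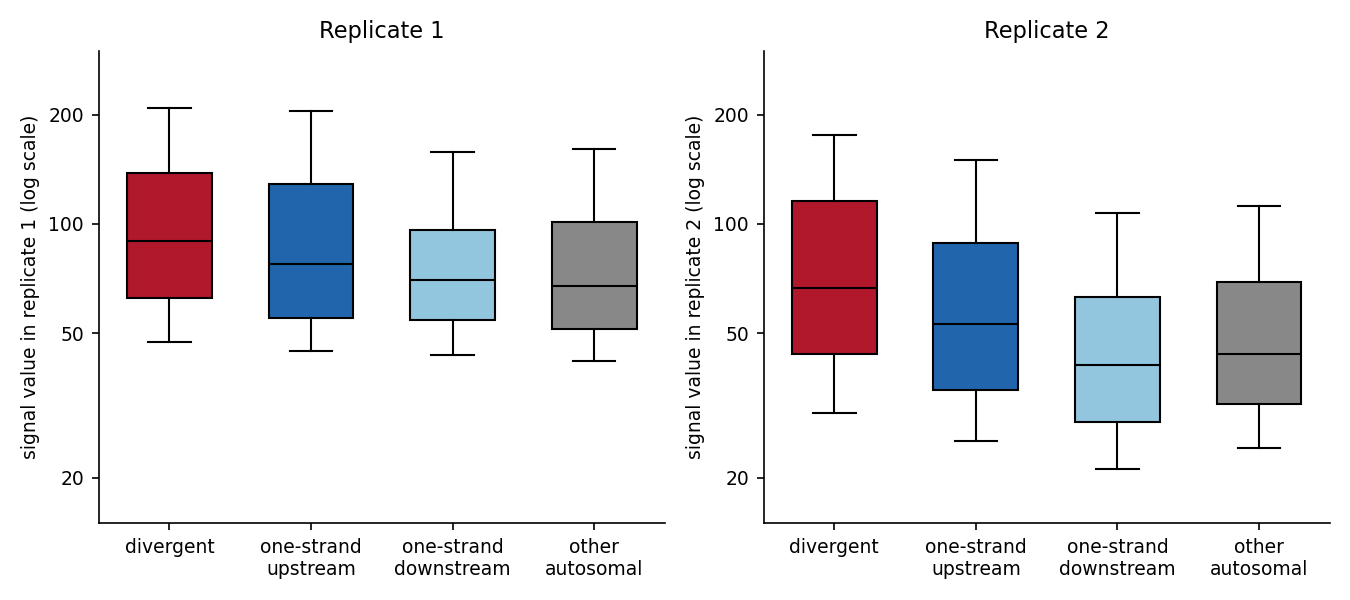
Signal values (log scale) in replicate 1 (left) and replicate 2 (right) of the regions that overlap autosomal optimal peaks of each class. Each peak takes its strongest overlapping region, so a region shared by several peaks is counted at each. Boxes span the quartiles with the median, whiskers the 10th to 90th percentile. Medians at divergent peaks are 89.8 in replicate 1 and 66.8 in replicate 2, above those of one-strand upstream peaks (77.8 and 53.1), and the boxes of all classes overlap.

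Median signal differed with the distance between the starts, but not in an even order. In replicate 1 the median was 114 with starts 201 to 300 bp apart and 72.2 with starts 401 to 600 bp apart, and in replicate 2 these were 88.9 and 54.7. In the optimal list the median was 190 (interval 177 to 211, n = 165) at 201 to 300 bp and 114 (103 to 125, n = 162) at 401 to 600 bp. Starts within 100 bp of each other gave the highest median, 197.5, but with a wide interval (143 to 262, n = 82). The median was 156 at 101 to 200 bp (122 to 194, n = 67), below that at 201 to 300 bp, and 152 at 301 to 400 bp (137 to 170, n = 152). It was 117 at 601 to 1000 bp (111 to 134, n = 138) and 134 at 1001 to 2000 bp (114 to 210, n = 29), no lower than at 401 to 600 bp. Over the 795 head-to-head members Spearman's rho between spacing and signal value was -0.24, and it was -0.23 in replicate 1 and -0.25 in replicate 2, which share the same gene pairs. It is given as a description of peaks within these lists.

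Seen from the genes, the annotation holds 2253 head-to-head pairs with starts up to 1000 bp apart, of which 725 (32.2%) had an optimal summit within 1000 bp of both starts. The strongest 5817 regions of replicate 1 marked 35.0% of the pairs and those of replicate 2 36.5%. The share was 39.1% (interval 34.0 to 44.5, n = 350) with starts 301 to 400 bp apart and 25.2% (20.5 to 30.5, n = 305) with starts 101 to 200 bp apart. Wide spacing leaves a shorter stretch that meets the rule at both ends, so these shares do not compare equal lengths. With 200 bp searched on either side of the most 5′ start of each gene, 916 of 4247 genes in such pairs had an optimal summit (21.6%), against 640 of 7422 other autosomal genes (8.62%). The shares were 23.1% and 9.36% in replicate 1, and 25.1% and 8.76% in replicate 2. Paired genes share summits, so these genes are not independent of each other. In the pooled list of 30000 relaxed regions, which also holds background, the shares were 30.0% and 20.6%. In the optimal list 31.9% of autosomal promoter peaks were divergent (819 of 2570), against 11.3% of autosomal promoter regions in the relaxed pooled list outside it (572 of 5080).

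**Figure D4:**
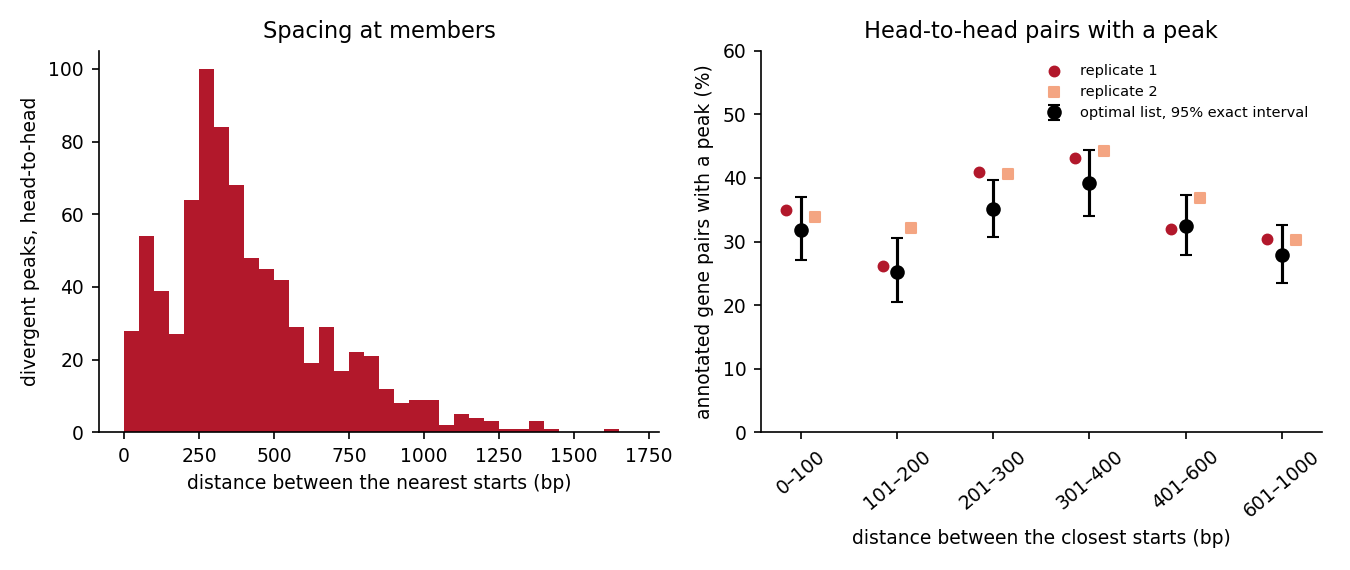
Left, number of head-to-head members by distance between the nearest starts (bp). Right, share of annotated head-to-head gene pairs with a peak (%), by distance between the closest starts (bp), in the optimal list (black, 95% exact interval), replicate 1 (circles) and replicate 2 (squares); the optimal share runs between 25.2% at 101 to 200 bp and 39.1% at 301 to 400 bp.

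In total 1434 autosomal protein-coding genes had a divergent peak within 1000 bp of a start, 12.3% of the 11669 such genes. The lists with the most such genes were those of the mitochondrial and the cytosolic ribosome. The mitochondrial ribosome had 27 of 62 genes with a divergent peak (43.5%, interval 31.0 to 56.7) and the cytosolic ribosome 27 of 77 (35.1%, interval 24.5 to 46.8). The lists differ in how their genes are arranged: 79.0% of mitochondrial and 59.7% of cytosolic ribosomal genes stood in a head-to-head pair, against 36.4% of all autosomal genes. Among paired genes only, the shares with a divergent peak were 55.1% for the mitochondrial ribosome and 58.7% for the cytosolic ribosome, against 32.5% of the 4247 paired genes. Of 29 mitochondrial ribosomal genes with any promoter peak, 27 had a divergent one, whereas for the cytosolic ribosome it was 27 of 46, against 53.6% of the 2677 autosomal genes with any promoter peak. The mRpS23, mRpS10 and mRpL41 peaks given above led the mitochondrial list. The strongest at the cytosolic ribosome were RpL34b/CG8132, with 275 in replicate 1 and 224 in replicate 2, Ripalpha/RpL7, with 268 and 187, and RpL32/CG7943, with 230 and 220.

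Other core machinery had fewer such genes by count. A divergent peak was present at 7 of 17 autophagy genes (41.2%, interval 18.4 to 67.1), all 7 among the 14 that stood in a head-to-head pair, led by Atg18a, which shares its promoter with the nuclear receptor gene ERR (126 in replicate 1 and 173 in replicate 2), with Xe7/Atg17 and CG5645/Atg12 next. It was present at 6 of 22 mediator genes (MED30, MED27 and MED6 the strongest), 6 of 27 RNA polymerase subunits (Polr2B, Polr2H and Polr2J), 6 of 29 aminoacyl-tRNA synthetases (IleRS, GluProRS and ArgRS-m) and 6 of 36 translation initiation factors (eIF3c, eIF4EHP and eIF3h). The proteasome had 7 of 42, led by Rpn5 at Hat1/Rpn5 with 172 in replicate 1 and 131 in replicate 2, followed by Prosbeta1 and Rpn13. The vacuolar proton pump had 5 of 31, with 264 in replicate 1 and 263 in replicate 2 at Vha100-2/Vti1b, followed by Vha36-1 and Vha55. Rab GTPases had 5 of 22, among them Rab30, Rab8 and Rab7. Among paired genes only, 32.5% of all genes had a divergent peak. The share was 50% for autophagy and 38.5% for both the vacuolar proton pump and Rab GTPases. It was 35.3% for mediator genes, for RNA polymerase subunits and for translation initiation factors. Below 32.5% were the aminoacyl-tRNA synthetases (31.6%) and the proteasome (26.1%). With unpaired genes included, the exact intervals of these lists, other than autophagy, included the 12.3% of all genes.

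Members also lay at genes of energy metabolism. Of 17 fatty acid oxidation genes, 14 had some promoter peak, as did 2677 of all 11669 autosomal genes. A divergent peak was present at 4 of the 17 (23.5%, interval 6.81 to 49.9, against 12.3% of all genes). These 4 were among 5 that stood in a head-to-head pair, whereas 32.5% of all 4247 paired genes had a divergent peak. The strongest were at Ank2/Mcad, with 349 in replicate 1 and 125 in replicate 2, at colt/HINT1, with 250 and 120, and at CG17186/Arc42, with 118 and 78.6. Mcad encodes a medium-chain acyl-CoA dehydrogenase and colt a carnitine carrier, and at Ank2/Mcad the summit lay 56 bp from the Mcad start and 899 bp from that of Ank2. The respiratory chain and ATP synthase had 7 of 72 (9.72%), with COX5A, COX7B and ND-SGDH the strongest (102 to 128 in replicate 1 and 70.1 to 143 in replicate 2). The tricarboxylic acid cycle had 3 of 11 (27.3%), Idh3g, mAcon1 and Mdh2, and glycolysis 2 of 10, Eno and Pgk. The exact intervals of these 4 lists all included 12.3%. Among paired genes only, the share with a divergent peak was 21.9% for the respiratory chain and ATP synthase (32 genes). It was 60% for the tricarboxylic acid cycle and 40% for glycolysis, with 5 paired genes in each. The Mdh2 peak, at 67.0 in the optimal list, had no replicate 2 region.

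Lists of tissue-restricted genes held no gene with a divergent peak. None of 70 cytochrome P450 genes (upper limit 5.13%), none of 81 larval cuticle genes (upper limit 4.45%) and none of 23 midgut protease and amylase genes (upper limit 14.8%) had a divergent peak. Over all autosomal genes the share was 12.3%, which lies below the upper limit of the midgut list. In the same order, 10 (14.3%), 9 (11.1%) and 8 (34.8%) of the listed genes stood in a head-to-head pair, against 36.4% of all genes. Few listed genes could thus have a divergent peak, which 32.5% of all 4247 paired genes had. Any promoter peak was present at 5, 3 and 0 of the listed genes, against 2677 of all 11669 autosomal genes. In 3 gene pairs both genes belonged to a list. RpL28/eIF1 held 2 members, with 154 and 91.3 in replicate 1 and the same value, 57.1, at both in replicate 2. The other pairs were COX8/VhaM9.7-b, with 61.3 in replicate 1 and 65.0 in replicate 2, and mRpL55/ATPsynD, with 47.7 in replicate 1 and 27.9 in replicate 2.

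The members' shares with core promoter elements and with Hnf4 sites were set against those of the other peaks. A motif counted if either strand held it within 100 bp of the summit. The DRE (TATCGATA) was present at 107 of 864 divergent regions in replicate 1 (12.4%) and at 108 of 905 in replicate 2 (11.9%). In the optimal list it was present at 99 of 819 members (12.1%, interval 9.93 to 14.5), against 4.04% of all 5817 optimal peaks. By class, the share was 12.1% at divergent, 5.80% at one-strand upstream, 1.85% at downstream and 0.462% at other autosomal peaks. Of all 29477 words of 8 bases found at members, TATCGATA had the largest difference between divergent and one-strand upstream peaks, 6.29 percentage points. The next words were the overlapping ATCGATAG and the A- and T-rich AATTTTAA, and this ranking was made after the data were seen. Motif 7 was present at 90 members (11.0%), against 4.93% of one-strand upstream peaks. The 5 bases CGATA, which the DRE contains and the factor BEAF-32 binds, were present at 384 members (46.9%). They were present at 34.9% of one-strand upstream peaks and 37.9% of windows at 11435 autosomal starts.

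The M1BP site (GGTCACAC) was present at 46 members (5.62%, interval 4.14 to 7.42), against 2.1% of all optimal peaks and 3.46% of one-strand upstream peaks. At least 1 of the DRE, the M1BP site and motif 7, a grouping made after the values were seen, was present at 205 members (25.0%), against 12.6% of one-strand upstream and 6.05% of downstream peaks. GAGA sequence, bound by GAGA factor, was less frequent than at one-strand promoter peaks, at 3.17% of members (interval 2.08 to 4.62), against 8.56% of one-strand upstream (7.01 to 10.3) and 9.92% of downstream peaks. For comparison, 201-bp windows were centred on 11435 autosomal protein-coding starts. These are fewer than the 11669 autosomal genes, so not every annotated start was used. The DRE was in 7.08% of these windows, the M1BP site in 6.63%, motif 7 in 4.74%, GAGA sequence in 3.79% and the Hnf4 site in 0.219%. The members' GAGA share was thus close to that of these starts, and to the 4.11% of other autosomal peaks. G and C made up 36.7% of the bases around members, 38.4% around one-strand upstream and 41.3% around downstream peaks, and the part of base composition in these shares was not tested.

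In percentage points, the difference in the DRE was smaller at like distances from a start. Among summits within 100 bp of the nearest start, the DRE was present at 82 of 519 divergent (15.8%, interval 12.8 to 19.2) and 48 of 354 one-strand upstream peaks (13.6%, interval 10.2 to 17.6), and these intervals overlapped. Among summits 101 to 250 bp from it, the DRE was at 16 of 239 divergent (6.69%, interval 3.87 to 10.6) and 12 of 369 one-strand upstream peaks (3.25%, 1.69 to 5.61). Replicate 1 gave 14.9% and 11.9% within 100 bp, and 8.97% and 3.83% at 101 to 250 bp. In replicate 2 these shares were 15.2% and 14.5%, and 7.78% and 3.10%. In the optimal list, within 100 bp, the M1BP site was at 6.94% of divergent and 8.47% of one-strand upstream peaks, the opposite order. Motif 7 was there at 14.8% (interval 11.9 to 18.2) and 9.60% (6.74 to 13.2), and GAGA sequence at 2.50% (1.34 to 4.25) and 5.93% (3.71 to 8.93).

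**Figure D5:**
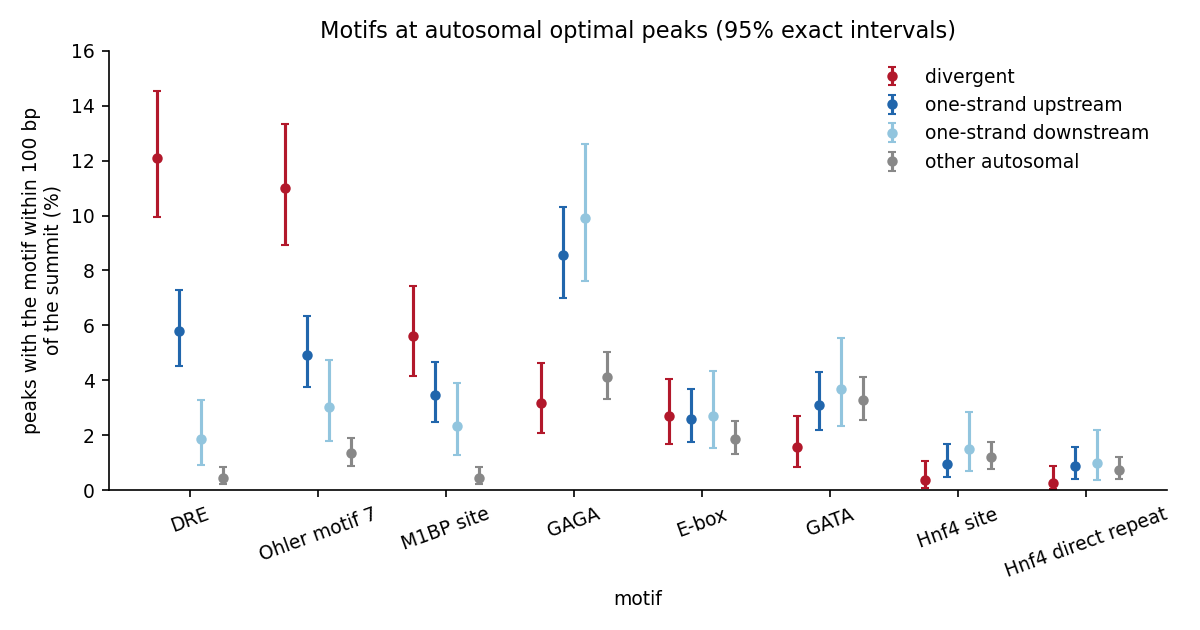
Share of autosomal optimal peaks with each motif within 100 bp of the summit (vertical axis, %), for 819 divergent, 1156 one-strand upstream, 595 one-strand downstream and 2165 other peaks, with 95% exact intervals. The DRE (12.1%) and motif 7 (11.0%) are highest at divergent peaks, and GAGA is lower there (3.17%) than at both one-strand classes. The Hnf4 site is at 0.366% of divergent, 0.952% of one-strand upstream, 1.51% of downstream and 1.20% of other peaks.

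Within the members, the motifs differed in how they went with signal. The M1BP site was present at 2 of the 205 strongest members and at 18 of the 205 weakest, and motif 7 at 33 and 16 of them. The DRE was present at 20 of the strongest and 22 of the weakest. Members with the M1BP site had a median of 65.6 in replicate 1 and 48.5 in replicate 2 (n = 46 in the optimal list), against 91.9 and 68.9 for members without it (n = 773). Members with motif 7 had 99.3 in replicate 1 and 92.9 in replicate 2 (n = 90), against 88.5 and 65.5 for members without it (n = 729). The order was the same in both replicates for both motifs. The strongest DRE members were Atat/Shc, with 370 in replicate 1 and 441 in replicate 2, and GCS2beta/CG5131, with 216 and 262. The strongest with the M1BP site were Ripalpha/RpL7 and PIG-C/CG12016, with 117 in replicate 1 and 122 in replicate 2, and Brf/sds22, where Brf is a subunit of the RNA polymerase III factor TFIIIB, followed Atat/Shc among those with motif 7.

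Midpoints of all annotated head-to-head pairs were searched too. The M1BP site was present at 3.40% of 677 midpoints of pairs with a peak (interval 2.17 to 5.05), against 5.98% of 1437 without one (4.81 to 7.34). The DRE was present at 9.90% of midpoints with a peak (7.75 to 12.4) and 7.17% of those without (5.89 to 8.63). Motif 7 was present at 5.17% of midpoints with a peak (3.63 to 7.12) and 4.87% of those without (3.82 to 6.11). CGATA was present at 41.7% (37.9 to 45.5) and 39.6% (37.1 to 42.2). For each of these motifs the intervals overlapped. A TATA box (TATAAA 45 to 20 bp upstream of the start) was present at 43 of 1430 starts of members (3.01%) and 62 of 1554 starts of one-strand promoter peaks (3.99%).

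The Hnf4 site CAAAGTCCA was present at 3 of 819 members (0.366%, interval 0.0756 to 1.07), against 1.05% of all optimal peaks, 0.952% of one-strand upstream, 1.51% of downstream and 1.20% of other autosomal peaks. The 3 members were RpL34a/Trmt61, with 150 in replicate 1 and 95.5 in replicate 2, Mdh1/Cnot4, with 61.8 in replicate 1 and 26.5 in replicate 2, and T3dh/pgc, with 19.3 in replicate 2 and no replicate 1 region. RpL34a encodes a cytosolic ribosomal protein and Trmt61 a transfer RNA methyltransferase, and Mdh1 is the cytosolic malate dehydrogenase. None of the 3 matches lay within 50 bp of its summit. The direct repeat was present at 2 members, CG3164/Gs1, with 63.8 in replicate 1 and 38.8 in replicate 2, where Gs1 encodes a glutamine synthetase, and a second, weaker peak at CG11309/CG7632, with 66.5 in replicate 1 and 36.3 in replicate 2. Both of these matches lay within 50 bp of the summit. The direct repeat was thus at 0.244% of members (interval 0.0296 to 0.879). It was at 0.865% of one-strand upstream, 1.01% of downstream and 0.739% of other autosomal peaks. The Hnf4 site written backwards (ACCTGAAAC), searched as a control, was present at 1 member (0.122%). Its shares were 0.0865% at one-strand upstream, 0% at downstream and 0.185% at other autosomal peaks. The share of members with the Hnf4 site was below that of all optimal peaks, which include the members. With 3 members its interval includes 1.05% and the 0.952% of one-strand upstream peaks. It ends below the 1.51% of downstream and 1.20% of other autosomal peaks, whose own intervals (0.694 to 2.85 and 0.786 to 1.75) overlap it. Whether the shares differ was not tested. A missing match says only that these letters were not in the window.

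At the edge of the rule, the farthest members were Smg5/Ance, with 63.8 in replicate 1 and 17.5 in replicate 2, and CG31174/CG31431, with 130 in replicate 1 and 94.1 in replicate 2, each 993 bp from the farther start. The nearest peaks outside were wde/CG12935, with 181 in replicate 1 and 136 in replicate 2 at 1003 bp, and CG43116/E(spl)mdelta-HLH, with 163 in replicate 1 and 109 in replicate 2 at 1005 bp.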

How the data were processed

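The authors deposited region lists of Hnf4 chromatin immunoprecipitation in narrowPeak format: a relaxed list of 30000 regions for each of 2 replicates and for the replicates pooled, and an optimal list chosen by the irreproducible discovery rate, per the deposited file descriptions. The authors' signal values are enrichments over a control shared by both replicates, and they were compared only within a list. For the aligner and the peak caller, the sources used here give no name. The lists hold no read counts, so depth is unknown, and where nothing else is said intervals are 95% exact binomial intervals on numbers of peaks or genes, or order-statistic intervals of medians. They cover the number of regions only.

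Positions are 1-based in dm6. The dm3 lists (4) were not used. Starts came from Ensembl release 115 (13986 protein-coding genes with 19649 TSSs), and sequences from the RefSeq Release 6 genome, whose chromosome lengths were checked against the annotation's. In each replicate the strongest 5817 regions, as many as the optimal list holds, were classified in the same way, and an overlap of 1 bp counted. A peak's value in a replicate is that of the overlapping region with the highest signal value. Peaks that overlap the same replicate region therefore carry the same value. The 10 motifs were matched to either strand of the 201 bases centred on each summit. Named genes were the genes of the 20 strongest members that overlap the strongest regions of both replicates, in each gene list the 3 or fewer genes with the strongest peak, up to 2 peaks per motif, pairs with both genes in lists, and the peaks on either side of the 1000 bp limit. Members missing from a replicate, the strongest facing pair, and further features singled out were chosen after their values were seen. The example sequences leave out arm 2R.

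The members, lists and motifs were chosen with earlier results of these data known. The 200 bp gene window, the limit of 1000 bp on pairs, the spacing classes, the strongest and weakest quartiles, the pair midpoints, the TATA search, the count of words of 8 bases and the comparison at like distances were chosen after the files were read, some after values were seen. No test was run over peaks: there is 1 group of 2 replicates, and neighbouring peaks are not independent. The scripts were tested on simulated data, where 2000 of 2000 made-up regions were put in their class and 2000 of 2000 planted motifs were found. Tools were scipy 1.17.1, pandas 2.3.3, numpy 2.4.6 and matplotlib 3.10.9 under Python 3.11.15.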

Additional observations from a re-analysis of the deposited data

How the results depend on the processing

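Of 80 recomputed values, 53 stayed within the 95% interval of the reported value, or within 1.5 times it for the number of members. Keeping only head-to-head members could not change the share of pairs with a peak, since pairs were counted apart from members. The Hnf4 site share stayed within its interval in 11 of 12 settings, but that interval is wide (0.0756% to 1.07%). With TSS windows of 500 and 2000 bp, the share of autosomal promoter peaks that were divergent was 28.0% and 39.2%, the median signal value of members 157 and 131, and the share of head-to-head pairs with a peak 24.8% and 36.9%. At 2000 bp the head-to-head share of members was 95.5% and the DRE share 9.57%. Optimal peaks supported by the strongest regions of both replicates gave a divergent share of 34.2%, a median of 171 and 26.0% of pairs. The strongest 50% of optimal peaks gave 529 members, a share of 37.3%, a median of 202 and 22.7% of pairs. Leaving out a replicate gave divergent shares between 32.4% and 34.3% and pair shares between 35.0% and 36.5%. With 1 TSS per gene the divergent share was 37.6% and the head-to-head share 93.0%. Motif windows of 50 and 200 bp gave the DRE at 6.11% and 18.8% of members and the M1BP site at 2.20% and 11.0%; the 50 bp window gave the Hnf4 site at 0 of 819. Summits within 100 bp of the nearest start, chosen after seeing the data, gave a divergent share of 47.0% and a DRE share of 15.8%. The median without a replicate was left out, since each list has its own scale. No paired analysis was possible because the samples form 1 group.

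Limits: the number of members, not read depth, sets these intervals, and neighbouring peaks share promoters. The DRE share and the M1BP share follow the width of the window searched. The cause of these changes was not tested.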
